A study of Mus musculus with 54 samples.

Results

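The genes described here encode the proteasome, the protease complex that degrades ubiquitin-tagged proteins in every cell. They were chosen by name, as the genes listed in both deposited expression tables whose symbols start with Psma, Psmb, Psmc, Psmd or Psme and a digit, without the immunoproteasome genes Psmb8, Psmb9 and Psmb10. The rule gave 40 genes, of 10799 listed in the culture table, 10176 listed in the genotype table and 9985 listed in both. Smart-seq2, which sequences whole transcripts from few cells, was applied to group 2 innate lymphoid cells (ILC2s) of the small intestine, lymphocytes that secrete type 2 cytokines. The mice were C57BL/6, 8 to 12 weeks old, with males and females pooled. The culture experiment used WT cells in 6 groups of 4 libraries, all with IL-2 and IL-7. They were kept with IL-25, a cytokine made by tuft cells that stimulates ILC2s, or without it, for 4, 48 or 72 h. The genotype experiment had 4 groups of 4 libraries, namely nILC2 KO, nILC2 CTRL, iILC2 KO and iILC2 CTRL, where KO is the knockout of Rxrg, which encodes the nuclear receptor RXR gamma. All 16 libraries carried the labels IL-25 and 48 h, so the CTRL libraries share that treatment with the KO libraries. What the prefixes n and i stand for is not explained in the labels, nor is the promoter or cell type in which Rxrg was deleted. They also do not say whether the libraries of a group came from separate cultures or animals, so each p-value is judged against a spread between libraries that may be technical. For the gene tests that spread was pooled over all groups of an experiment. Within each genotype group, Y-linked genes summed to under 1 TPM in some libraries and to at least 93.4 TPM in others. The libraries of a genotype group thus did not all come from the same pool of cells.

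The proteasome consists of a barrel, the 20S core, and caps that bind its ends. The core has outer alpha rings that gate entry and inner beta rings, in which the products of Psmb5, Psmb6 and Psmb7 cleave the substrate. The 19S cap recognises ubiquitin chains, removes them and unfolds the substrate with a ring of ATPases. Interferon signalling replaces the cleaving subunits by the immunosubunits Psmb8, Psmb9 and Psmb10 and raises the PA28 cap (Psme1 and Psme2), which favours the production of peptides for antigen presentation. Lymphocytes hold immunoproteasomes without infection. By role, the 40 genes were 7 alpha subunits (Psma1 to Psma7), 3 cleaving and 4 structural beta subunits, 6 ATPases (Psmc1 to Psmc6), 3 other subunits of the 19S base, 8 of the 19S lid, 3 chaperones of 19S assembly (Psmd5, Psmd9 and Psmd10) and 4 activators (Psme1 to Psme4). The other 2 matched by symbol only. Psmc3ip encodes a factor of homologous recombination in meiosis, and Psme2b is a near copy of Psme2, so that reads of this pair may have been split between them. The 14 subunits of the core and the 17 of the 19S particle are called the 31 subunits.

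The values are TPM, relative transcript abundances scaled for gene length, which let genes be compared with each other. Depth is unknown because TPM keeps no read total. In bulk RNA, fewer cells of a type and less RNA per cell cannot be told apart. The sum over listed genes ran from 873200 to 898025 TPM in culture libraries and from 849733 to 886670 TPM in genotype libraries, of which the 40 genes held 1.02% to 1.41% and 0.774% to 1.11%. All 12 ILC2 markers looked for, among them Gata3 and Il17rb, were listed in both tables, and none of the 4 B and plasma cell markers or the 4 mast cell and basophil markers was. Markers of T cells, of group 3 innate lymphoid and NK cells, and of myeloid cells were listed in part in both tables. So were markers of epithelium, of stroma and endothelium, and of the red cell lineage. The 2 red cell markers listed in culture summed to 633 to 798 TPM without IL-25 at 72 h. Rxrg averaged 2.18 ± 0.826 TPM in nILC2 KO and 15.1 ± 3.29 TPM in nILC2 CTRL libraries, and 0.280 ± 0.207 TPM in iILC2 KO and 1.62 ± 0.250 TPM in iILC2 CTRL libraries (SD, n = 4 each, two-sided exact permutation p = 0.0286 for each pair, the smallest p that 4 libraries against 4 allow). A pair of nILC2 libraries stood apart in the proteasome genes. KO library 1 was above its group mean in 0 of the 31 subunits and CTRL library 4 in 2 of 31. Their median log2 deviations from the group mean were -0.204 and -0.208. Culture library 3 without IL-25 at 72 h was also above its mean in 2 of 31, but with a median deviation of -0.064. In the other direction, nILC2 KO libraries 2 and 3 were above their group mean in 30 and 31 of 31, with median deviations of 0.066 and 0.114. Y-linked genes summed to under 1 TPM in CTRL library 2 and KO libraries 1 and 2 of both nILC2 and iILC2, although the labels give pooled males and females.

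Promoter sequences of 34 of the 40 genes were found in RefSeq (GRCm38.p6, from 250 bases before to 50 bases after the start site). They were searched on both strands for TGACNNNGC, the core of the antioxidant response element that NRF1 and NRF2 bind with small MAF proteins, and for CCAAT, the box bound by NF-Y. NRF1 is known to raise proteasome genes when proteasome activity is short. TGACNNNGC was found in 6 of the 34 genes (17.6%) and in 13.99% of all 27025 genes with a promoter in the same source. CCAAT was found in 13 of 34 (38.2%) and in 41.1% of all genes. The shares of the proteasome genes were thus near those of all genes for both motifs. The 4 promoters with TGACNNNGC among the 31 subunits are shown with the match in capitals, because they belong to cleaving subunits (Psmb5 and Psmb6), to an ATPase (Psmc6) and to a lid subunit (Psmd12) whose levels with IL-25 are followed through the results. Psmb5 is on the minus strand (chr14:54617946-54618245), and Psmb6 (chr11:70525107-70525406), Psmc6 (chr14:45329574-45329873) and Psmd12 (chr11:107479278-107479577) are on the plus strand. The match lies at bases -47 to -39 from the start site in Psmb5 and at -9 to -1 in Psmb6. In Psmc6 (-227 to -219) and Psmd12 (-247 to -239) it is on the opposite strand, and the capitals show its reverse complement.
Psmb5: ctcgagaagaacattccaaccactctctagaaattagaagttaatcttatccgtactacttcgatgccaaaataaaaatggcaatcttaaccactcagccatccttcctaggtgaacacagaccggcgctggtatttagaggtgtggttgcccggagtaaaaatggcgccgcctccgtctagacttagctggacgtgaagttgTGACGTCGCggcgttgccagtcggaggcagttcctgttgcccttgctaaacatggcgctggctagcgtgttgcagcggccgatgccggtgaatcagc
Psmb6: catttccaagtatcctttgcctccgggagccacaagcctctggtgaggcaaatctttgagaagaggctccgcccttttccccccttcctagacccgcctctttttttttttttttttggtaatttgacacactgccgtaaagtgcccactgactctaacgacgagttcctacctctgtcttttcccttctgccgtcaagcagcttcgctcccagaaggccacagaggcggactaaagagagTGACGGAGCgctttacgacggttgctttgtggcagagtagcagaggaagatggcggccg
Psmc6: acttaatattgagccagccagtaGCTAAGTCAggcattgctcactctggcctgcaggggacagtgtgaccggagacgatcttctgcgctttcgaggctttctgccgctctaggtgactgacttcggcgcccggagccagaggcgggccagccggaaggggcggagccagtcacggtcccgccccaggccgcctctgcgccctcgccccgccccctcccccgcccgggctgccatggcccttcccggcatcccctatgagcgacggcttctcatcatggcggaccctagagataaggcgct
Psmd12: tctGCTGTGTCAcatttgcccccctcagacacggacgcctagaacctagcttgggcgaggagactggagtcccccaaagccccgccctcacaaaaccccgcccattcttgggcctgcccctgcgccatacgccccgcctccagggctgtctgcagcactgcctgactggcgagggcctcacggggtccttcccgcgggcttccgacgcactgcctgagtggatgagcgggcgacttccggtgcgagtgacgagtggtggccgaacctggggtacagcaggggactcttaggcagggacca
The remaining matches to TGACNNNGC were in Psmd9 and Psme4. None of the 4 promoters shown holds CCAAT, which was found in Psma1, Psma2, Psma3, Psma6, Psma7, Psmb3, Psmc1, Psmc2, Psmd4 and Psmd14 among the 31 subunits. A match describes the letters in this window and is not a binding site.

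Core subunits were abundant in every group, and the abundance differed widely between roles. Psma3, an alpha subunit, was the highest of the 40 genes in culture with IL-25 at 4 h, at 936 TPM, and at 48 h, at 925 TPM. Without IL-25 at 4 h it averaged 804 TPM. The alpha and beta subunits of the core ran between 163 and 936 TPM as group means in culture. The 19S subunits ran between 53.7 and 332 TPM, with Psmd3 lowest and Psmd8 highest, both of the lid. The assembly chaperones Psmd5, Psmd9 and Psmd10 ran between 25.2 and 53.9 TPM. Among activators, Psme1 and Psme2 ran between 364 and 777 TPM, Psme3, the nuclear activator PA28 gamma, between 11.1 and 33.8 TPM, and Psme4, the activator PA200, between 2.47 and 6.80 TPM.

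Summed over their genes, the core and the 19S particle were higher with IL-25 at all 3 times, most at 48 h, and PA28 was lower with it from 48 h on. The 14 core subunits summed to 6714 ± 99.0 TPM with IL-25 and 5960.0 ± 246 TPM without it at 4 h, a difference of 12.6%. At 48 h the sums were 7177 ± 129 TPM with and 5274 ± 202 TPM without IL-25 (36.1%), and at 72 h 5959 ± 65.9 TPM with and 5186 ± 229 TPM without it (14.9%; SD, n = 4 each). The 17 genes of the 19S particle summed to 4001 ± 83.7 TPM with and 3423 ± 165 TPM without IL-25 at 4 h (16.9%), to 3632 ± 168 TPM with and 2602 ± 97.2 TPM without it at 48 h (39.6%), and to 2852 ± 71.3 TPM with and 2549 ± 152 TPM without it at 72 h (11.9%). In each of these 6 comparisons every library with IL-25 was above every library without it. For PA28, the sum of Psme1 and Psme2 was 1501 ± 23.3 TPM with IL-25 and 1383 ± 56.4 TPM without it at 4 h, but 794 ± 18.8 TPM with and 1200.5 ± 104 TPM without it at 48 h and 896 ± 42.1 TPM with and 1300.3 ± 147 TPM without it at 72 h. Every library with IL-25 was above the others at 4 h and below them at 48 and 72 h.

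**Figure D1:**
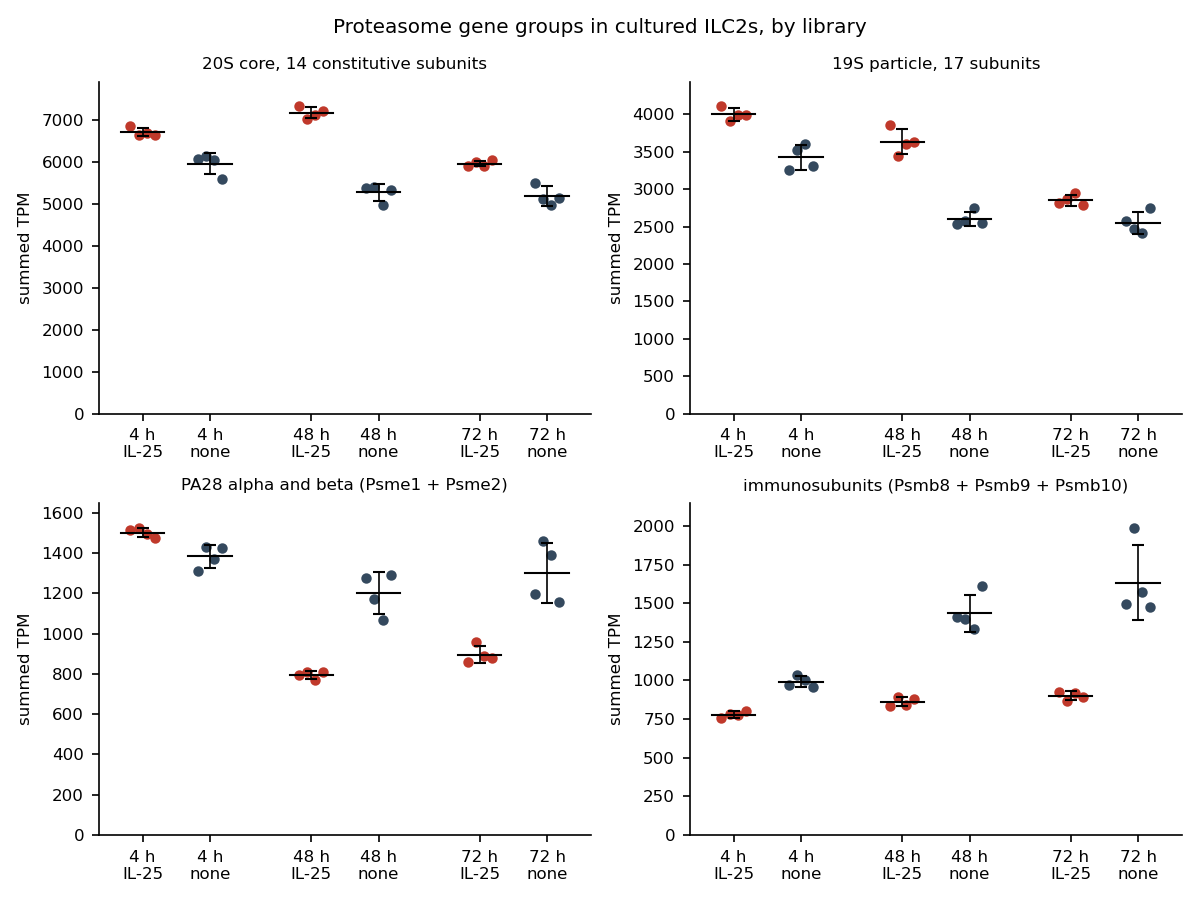
Summed TPM (y axis, from 0) of the 14 core subunits, the 17 subunits of the 19S particle, Psme1 and Psme2, and the immunosubunits in each culture library (points), with the group mean (line) and SD, for cells with IL-25 (red) and without it (dark blue) at 4, 48 and 72 h. Core and 19S sums are higher with IL-25 at each time, widest apart at 48 h (7177 TPM with and 5274 TPM without IL-25 for the core), while the PA28 sum is lower with IL-25 at 48 and 72 h.

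Each gene was tested with limma on log2(TPM + 1) over all genes of its table, with Benjamini-Hochberg adjustment across the table and a call at an adjusted p below 0.05. All 40 genes passed the filter on low values. At 4 h, 21 of 40 were higher and 0 lower with IL-25, beside shares of 13.4% higher and 26.9% lower among all 10548 genes tested. Without adjustment, 23 of the 40 were higher and 1 lower at p under 0.05, beside 47.7% of all genes in either direction. At 48 h, 33 were higher and 3 lower (21.4% and 28.7% of all genes), and at 72 h, 19 were higher and 5 lower (15.3% and 33.2%). The median log2 fold change of the 40 genes was 0.23 at 4 h, 0.44 at 48 h and 0.16 at 72 h, beside medians over all genes of -0.12, -0.09 and -0.20. At 4 h, 22 of the 40 genes were higher and 0 lower in every library with IL-25 than in every library without it (13% and 22.9% of all genes), 29 and 3 at 48 h (19.5% and 24.8%), and 12 and 5 at 72 h (13.9% and 29.4%). Of the 31 subunits, 20 were called higher at 4 h, 30 at 48 h and 18 at 72 h, and 28 of 31 had their largest IL-25 effect at 48 h. The counts depend on how libraries are scaled, and the shares of all genes called under the other scalings are not given. Rescaling by the median of ratios gave 28 higher and 0 lower at 4 h and 28 higher and 1 lower at 72 h, and quantile normalization gave 19 and 3 at 4 h and 11 and 5 at 72 h. At 48 h the number of calls stayed within 1.5 times under both. The calls of a change in the IL-25 effect between 48 and 72 h, given below, became fewer under both.

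**Figure D2:**
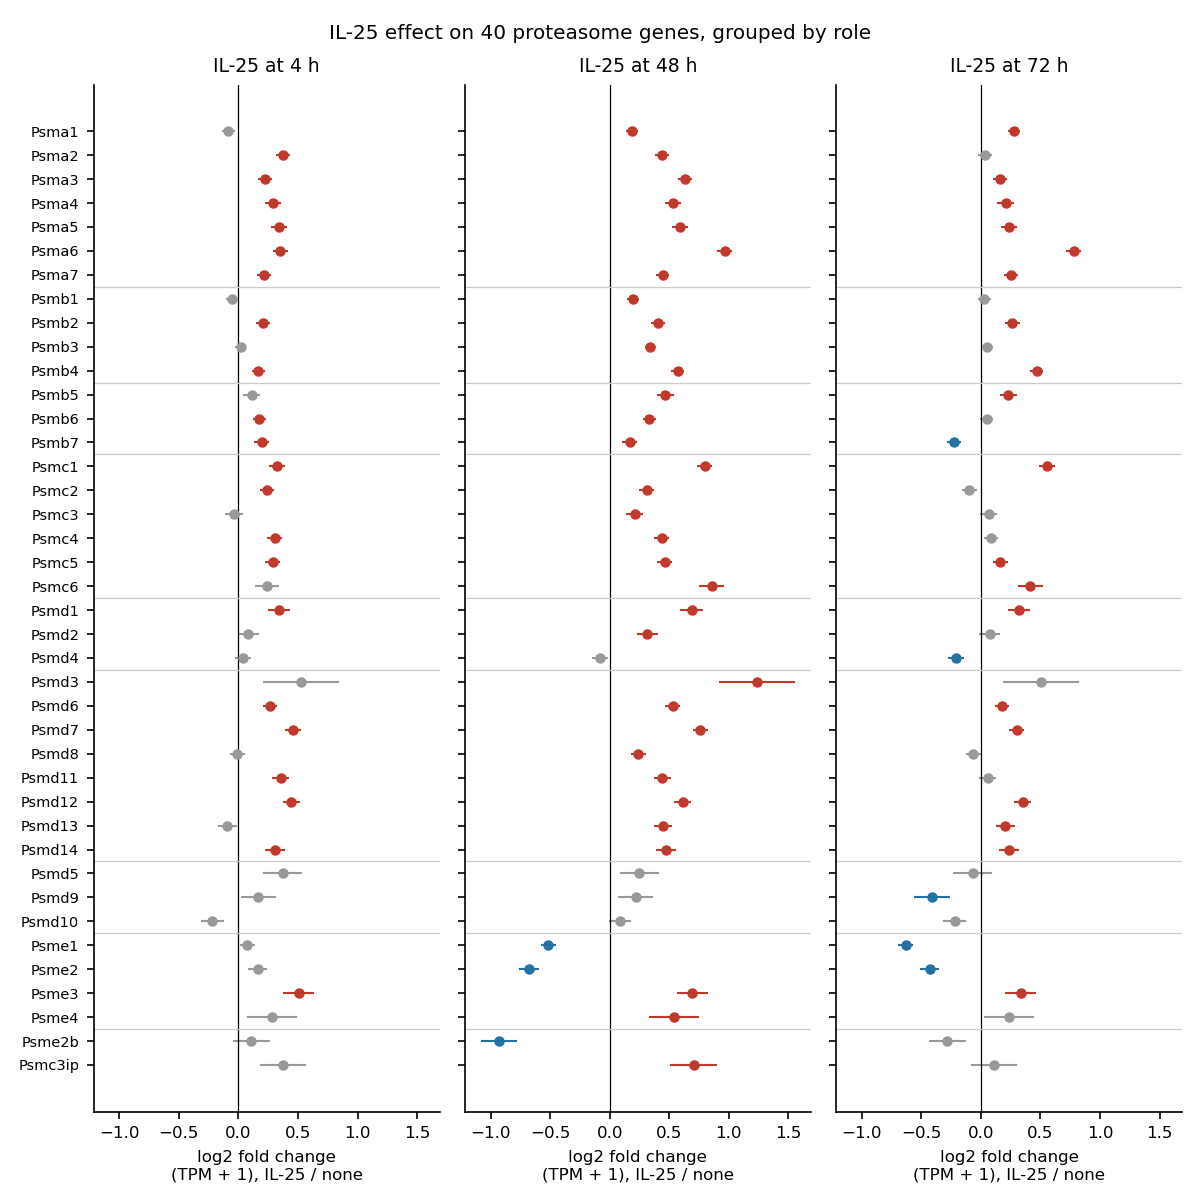
Log2 fold change on the TPM + 1 scale (x axis, IL-25 over no IL-25) of each of the 40 genes at 4, 48 and 72 h, grouped by role from the alpha ring at the top to the genes matched by symbol only at the bottom. Points are estimates and lines their standard errors, with genes called higher in red, called lower in blue and not called in grey. At 48 h 33 points are red, and the blue ones are Psme1, Psme2 and Psme2b.

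In the alpha ring, whose N-terminal tails close the channel of the barrel, 6 of 7 genes rose at 4 h, 7 of 7 at 48 h and 6 of 7 at 72 h. Of all genes, 13.4%, 21.4% and 15.3% were called higher at these times, shares that stand beside the count of each role below. Among the alpha subunits, Psma6 changed most at 48 h. It had 387, 399, 371 and 407 TPM with IL-25, against 209, 209, 197 and 184 TPM without it. The groups lay far apart, and the ratio of their means was 1.96 (log2 0.97 ± 0.06 SE, adjusted p = 2.7e-12). At 72 h Psma6 had 293, 300.4, 298 and 314 TPM with IL-25 and 202, 166, 169 and 166 TPM without it, again without overlap (log2 0.78, adjusted p = 2e-10), and it had the largest rise of all 40 genes at that time. Psma1 was the exception at 4 h, with a log2 change of -0.09 that did not pass the test (adjusted p = 0.21), but it rose by 0.19 at 48 h and 0.28 at 72 h. Under quantile normalization the rises of Psma1 at 48 h (-0.02) and of Psma3 at 72 h (-0.03) turned round and were not called. In the structural part of the beta ring, 2 of 4 genes rose at 4 h, 4 at 48 h and 2 at 72 h. Psmb4 led them at 72 h, with 456, 434, 493 and 482 TPM with IL-25 against 328, 342, 328 and 347 TPM without it, all libraries apart (log2 0.47, adjusted p = 1.1e-07). Psmb1 rose at 48 h by log2 0.19, and quantile normalization turned it to -0.03 and ended the call.

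The cleaving subunits did not move as one. Psmb5 has the chymotrypsin-like activity and is the main target of the inhibitor bortezomib. At 48 h it had 568, 501, 544 and 535 TPM with IL-25 and 366, 410.2, 384 and 391 TPM without it. All 4 libraries with IL-25 were above the others (log2 0.47 ± 0.07 SE, adjusted p = 3.4e-06). At 4 h Psmb5 had 423, 445, 423 and 462 TPM with IL-25 and 453, 441, 384 and 353 TPM without it, groups that overlapped (log2 0.11, adjusted p = 0.21). At 72 h the values were 475, 457, 460.4 and 479 TPM with IL-25 and 403, 363, 389 and 443 TPM without it, with no overlap (log2 0.23, adjusted p = 0.0075), and quantile normalization ended that call (0.07, adjusted p = 0.46). Psmb6, with caspase-like activity, had 641, 600.0, 629.8 and 661 TPM with IL-25 at 4 h, against 592, 585, 565 and 503 TPM without it. The groups were apart by a small step (log2 0.18, adjusted p = 0.012), and the call was lost without library 4 of the cells without IL-25 (adjusted p = 0.072). At 48 h Psmb6 had 526, 533, 549.8 and 572 TPM with IL-25 and 437, 448, 402 and 444 TPM without it (log2 0.33, adjusted p = 1.6e-05). At 72 h its groups overlapped, with 453, 446, 437 and 443 TPM with IL-25 and 450.5, 444, 397 and 431 TPM without it (log2 0.05, adjusted p = 0.48).

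Psmb7, with trypsin-like activity, was the cleaving subunit whose direction changed with time. It had 199.5, 183, 187 and 202 TPM with IL-25 at 4 h and 166, 174, 181 and 153 TPM without it (log2 0.19, adjusted p = 0.014). At 48 h the values were 207, 227, 213 and 231 TPM with IL-25 and 197, 208, 180.1 and 196 TPM without it, which overlapped slightly (log2 0.17, adjusted p = 0.025). At 72 h it had 161, 162, 163 and 166 TPM with IL-25 and 206, 187, 191 and 179.8 TPM without it, so that all libraries with IL-25 were lower (log2 -0.23, adjusted p = 0.004). Rescaling by the median of ratios moved the 72 h value to 0.01 with no call, and quantile normalization moved the 48 h value to -0.01. The 4 h call was lost without library 4 of the cells without IL-25 (adjusted p = 0.067), and the 48 h call without library 3 of the cells without IL-25 (0.098) or library 2 (0.068) or 4 (0.081) of the cells with it. The change of the IL-25 effect on Psmb7 between 48 and 72 h was -0.39 (adjusted p = 0.0026), and it was not called after median of ratios or quantile normalization (adjusted p = 0.15 and 0.058).

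**Figure D3:**
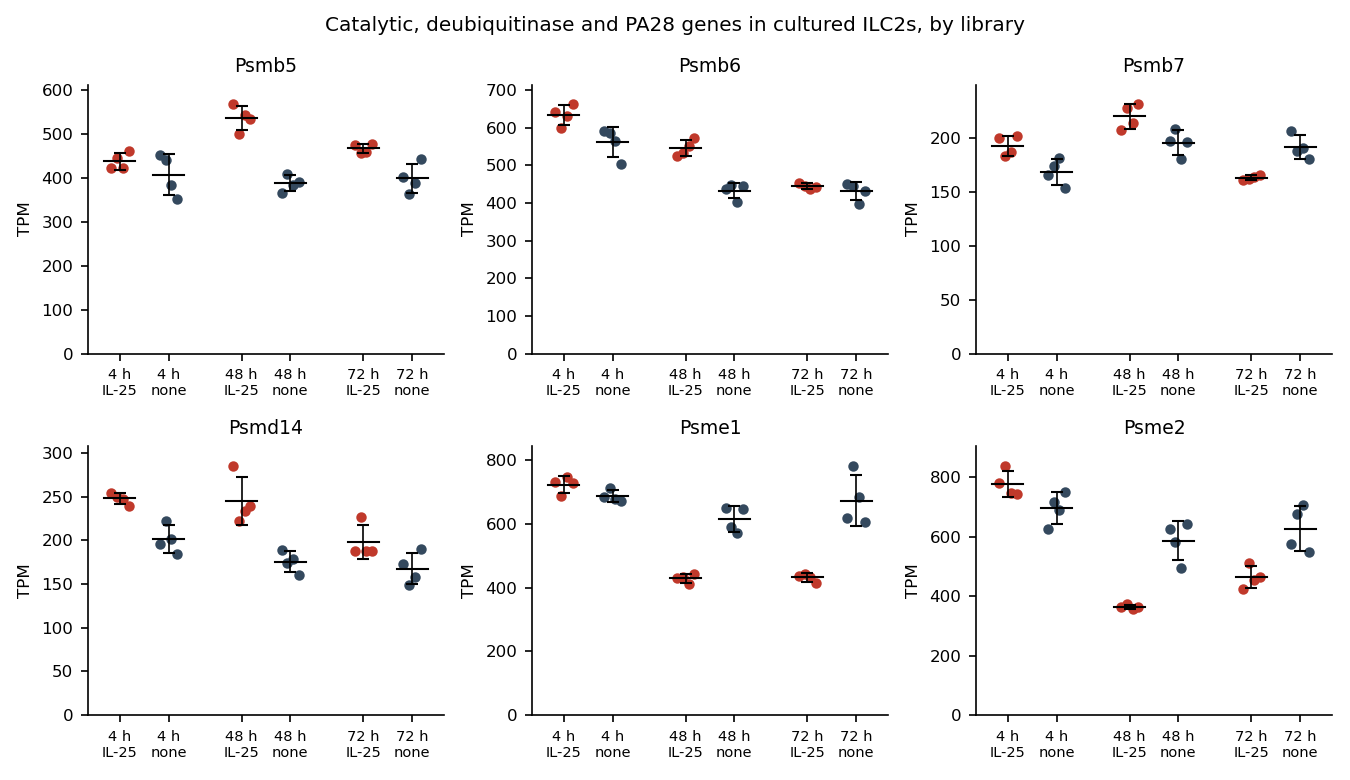
TPM (y axis, from 0) of Psmb5, Psmb6, Psmb7, Psmd14, Psme1 and Psme2 in each culture library (points), with group mean (line) and SD, for cells with IL-25 (red) and without it (dark blue) at 4, 48 and 72 h. Psmb5 at 48 h lies between 501 and 568 TPM with IL-25 and at most at 410.2 TPM without it, whereas Psme1 at 48 h lies at most at 444 TPM with IL-25 and at least at 570.1 TPM without it.

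In the 19S base are the 6 ATPases, which thread the substrate into the core. With IL-25, 4 of 6 were higher at 4 h, all 6 at 48 h and 3 of 6 at 72 h. Psmc6 had 271, 247, 233 and 205 TPM with IL-25 at 48 h and 119, 122, 141 and 145 TPM without it. Its lowest library with IL-25 was well above the highest without it (log2 0.85 ± 0.10 SE, adjusted p = 1.5e-07). At 4 h Psmc6 had 148, 145, 136 and 142 TPM with IL-25 and 114, 118, 125 and 124 TPM without it, which did not overlap but did not pass the test (log2 0.24, adjusted p = 0.065). At 72 h the values were 166, 186, 174 and 197 TPM with IL-25 and 156, 104, 132 and 156 TPM without it (log2 0.42, adjusted p = 0.0017). Psmc1 rose at all 3 times, its libraries apart each time (log2 0.33, 0.80 and 0.56). At 72 h it had 199.0, 206, 217 and 204 TPM with IL-25 and 138, 138, 141 and 144 TPM without it. Of the other base subunits, the scaffold Psmd1 rose at all 3 times (log2 0.34, 0.69 and 0.32) and Psmd2 at 48 h (0.32). Psmd4, a receptor for ubiquitin chains, was the single one of the 31 subunits not called higher at 48 h (log2 -0.08, adjusted p = 0.35). It fell at 72 h by log2 0.21 (adjusted p = 0.012), a direction that median of ratios turned to 0.02 with no call.

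The 19S lid holds Psmd14, the metalloprotease that cuts ubiquitin chains off the substrate. Psmd14 had 255, 249.5, 248 and 239.6 TPM with IL-25 at 4 h, against 196, 223, 202 and 184 TPM without it (log2 0.30, adjusted p = 0.0054). At 48 h it had 285, 222, 233 and 239 TPM with IL-25 and 189, 174, 179 and 160.2 TPM without it (log2 0.47, adjusted p = 4.1e-05). At both times the groups were apart. At 72 h they overlapped, with 188, 227, 188 and 188 TPM with IL-25 and 173, 149, 158 and 189.8 TPM without it (log2 0.24, adjusted p = 0.021), and the call was lost without library 2 of the cells with IL-25 (0.1) or library 2 (0.087) or 3 (0.061) of the cells without it. Of the 8 lid genes, 5 rose at 4 h, 8 at 48 h and 5 at 72 h. Psmd7, whose product pairs with that of Psmd14, and Psmd12, another lid subunit, had the largest rises among the subunits called at 4 h (log2 0.46 and 0.44, with all libraries apart). Psmd7 had 286, 284, 295 and 290.0 TPM with IL-25 and 201, 209.8, 226 and 204 TPM without it at 4 h. Psmd12 had 230.0, 212, 217 and 224 TPM with IL-25 and 162, 151, 172 and 163 TPM without it at 4 h, and rose by 0.61 at 48 h and 0.35 at 72 h. Psmd3 had the largest fold at 48 h and also the widest spread. It had 149, 133, 127 and 116 TPM with IL-25 and 36.8, 39.8, 70.2 and 87.5 TPM without it, which did not overlap (log2 1.24 ± 0.32 SE, adjusted p = 0.0023). At 4 h its libraries without IL-25 ran between 40.5 and 142 TPM, and neither the 4 h nor the 72 h difference passed the test (adjusted p = 0.2 for each).

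Chaperones bind parts of the 19S base while it is assembled. None of Psmd5, Psmd9 and Psmd10 was called higher with IL-25 at any time, and whether they differed from the subunits was not tested. At 4 h the log2 change of Psmd5 was 0.37 (adjusted p = 0.076), with every library with IL-25 above those without it. The log2 changes of Psmd5, Psmd9 and Psmd10 at 48 h were 0.25, 0.22 and 0.09, not called. Psmd10 averaged 31.7 TPM with IL-25 and 37.1 TPM without it at 4 h, not called. At 72 h it had at most 49.45 TPM with IL-25 and at least 49.9 TPM without it, which did not overlap and was not called. Psmd9 fell at 72 h (log2 -0.41, adjusted p = 0.026), with 37.0, 27.4, 28.9 and 29.6 TPM with IL-25 and 36.7, 42.2, 43.8 and 41.4 TPM without it. Only library 1 with IL-25 reached the range of the other group. The fall of Psmd9 was not called after median of ratios (-0.18, adjusted p = 0.32) or quantile normalization (-0.26, adjusted p = 0.17), nor without library 2, 3 or 4 with IL-25 or library 2 or 3 without it (0.053 to 0.073). Among chaperones of core assembly, 3 of 5 rose at 4 h, 3 of 5 at 48 h and none at 72 h (13.4%, 21.4% and 15.3% of all genes). Psmg3 rose by log2 0.36 at 4 h and 0.59 at 48 h (adjusted p = 5.2e-06) and fell by 0.22 at 72 h (adjusted p = 0.049), and Pomp, the maturation factor of the core, rose at 4 h (log2 0.39, adjusted p = 0.043).

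At 48 h Psme1 and Psme2 were lower and Psme3 and Psme4 higher with IL-25. Psme1, the alpha subunit of PA28, had 430.3, 433, 411 and 444 TPM with IL-25 at 48 h and 650.4, 591, 570.1 and 647 TPM without it. Every library with IL-25 was lower (log2 -0.51 ± 0.06 SE, adjusted p = 1.7e-07). At 72 h it had 438, 443, 434 and 414 TPM with IL-25 and 619.9, 782, 685 and 606 TPM without it (log2 -0.63, adjusted p = 6.4e-09). At 4 h the groups overlapped, with 730.0, 688, 748 and 729 TPM with IL-25 and 683, 714, 678 and 673 TPM without it (log2 0.07, adjusted p = 0.36). Psme2, the beta subunit, was called lower at 48 and 72 h as well. It had 362, 374, 357 and 364 TPM with IL-25 at 48 h and 625, 581, 495 and 642 TPM without it (log2 -0.68, adjusted p = 1.8e-07). At 72 h it had 422, 513, 454 and 464 TPM with IL-25 and 576, 676, 706 and 549 TPM without it (log2 -0.43, adjusted p = 0.00012), a call that median of ratios ended (-0.20, adjusted p = 0.13). At 4 h it had 782, 838, 746 and 743 TPM with IL-25 and 626, 716, 690.4 and 751 TPM without it, which overlapped (log2 0.16, adjusted p = 0.12). The near copy Psme2b had 15.5, 13.1, 13.2 and 20.4 TPM with IL-25 at 48 h and 30.6, 30.2, 25.9 and 33.9 TPM without it (log2 -0.93, adjusted p = 1.7e-05).

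Psme3, the gene of the nuclear activator, rose instead. It had 34.3, 37.1, 32.5 and 31.1 TPM with IL-25 at 4 h and 20.6, 26.4, 22.7 and 24.5 TPM without it (log2 0.50, adjusted p = 0.0031). At 48 h the values were 20.3, 20.4, 18 and 21.8 TPM with IL-25 and 12.2, 10.9, 12.0 and 13.2 TPM without it (log2 0.69, adjusted p = 8.6e-05), again without overlap. At 72 h the groups were nearly in contact, at 12.7, 14.4, 13.5 and 15.6 TPM with IL-25 and 12.6, 7.48, 12.0 and 12.3 TPM without it (log2 0.34, adjusted p = 0.035). The 72 h call was lost without library 2 of the cells without IL-25 (adjusted p = 0.21) or library 2 (0.068) or 4 (0.1) of the cells with it. Psme4, which is known for a role in chromatin and in germ cells, was low throughout. At 48 h it had 5.47, 3.89, 3.87 and 2.95 TPM with IL-25 and 1.51, 2.43, 3.2 and 2.74 TPM without it, which overlapped (log2 0.54, adjusted p = 0.035), and its call was lost without library 1 or 2 of the cells without IL-25 (0.14 and 0.057) or library 1, 2 or 3 of the cells with it (0.13, 0.056 and 0.055).

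At 48 and 72 h both PA28 genes and the 3 immunosubunits, which interferon raises, were lower with IL-25, while at 4 h the immunosubunit sum was lower and the PA28 sum higher. Of Psmb8, Psmb9 and Psmb10, 2 were called lower with IL-25 at 4 h and all 3 at 48 and 72 h. Among all genes 26.9%, 28.7% and 33.2% were called lower at these times. Psmb9 averaged 89.5 TPM with IL-25 and 206 TPM without it at 48 h (log2 -1.20, adjusted p = 3.5e-10). The immunosubunits summed to 778 ± 21.0 TPM with IL-25 and 991 ± 36.1 TPM without it at 4 h, to 863 ± 28.4 TPM with and 1436 ± 120 TPM without it at 48 h, and to 901 ± 28.9 TPM with and 1633 ± 241 TPM without it at 72 h. The balance within each pair that shares a place in the beta ring is given as shares of TPM without a test. Psmb8 made up 54.2 ± 1.78% of Psmb8 plus Psmb5 with IL-25 and 71.5 ± 2.05% without it at 48 h. Psmb9 made up 14.1 ± 1.72% of Psmb9 plus Psmb6 with IL-25 and 32.2 ± 1.70% without it. Psmb10 made up 38.4 ± 1.57% of Psmb10 plus Psmb7 with IL-25 and 56.3 ± 3.48% without it (SD, n = 4 each). In all 3 pairs and at all 3 times every library with IL-25 had a lower immunosubunit share than every library without it. Markers of other cells moved in both directions. Of 6 T cell markers 2 were listed, Cd3e and Cd3g, and their sum ran between 23.95 and 29.0 TPM with IL-25 and between 82.4 and 129 TPM without it at 48 h. Of 5 markers of the red cell lineage 2 were listed, among them the alpha globin gene Hba-a1, and they summed to between 8.71 and 19.4 TPM with IL-25 and to between 479 and 553 TPM without it. Of 4 epithelial markers 1 was listed, at 30.8 to 32.1 TPM with IL-25 and 95.6 to 112.5 TPM without it at 48 h. Of 5 markers of group 3 innate lymphoid cells and NK cells 4 were listed. They summed to 0.43 to 0.77 TPM with IL-25 and 5.56 to 9.37 TPM without it at 48 h. Of 3 markers of stroma and endothelium 1 was listed, the adhesion molecule gene Pecam1, and it was called higher with IL-25 at all 3 times (log2 2.05, 0.84 and 1.11), with 22.8 to 32.4 TPM with IL-25 and 11.9 to 19.5 TPM without it at 48 h. Of 5 myeloid markers 1 was listed, Cd68, which was called higher at 72 h (log2 1.64), at 3.84 to 7.23 TPM with IL-25 and 0.49 to 1.28 TPM without it. The part of these in the result was not tested.

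**Figure D4:**
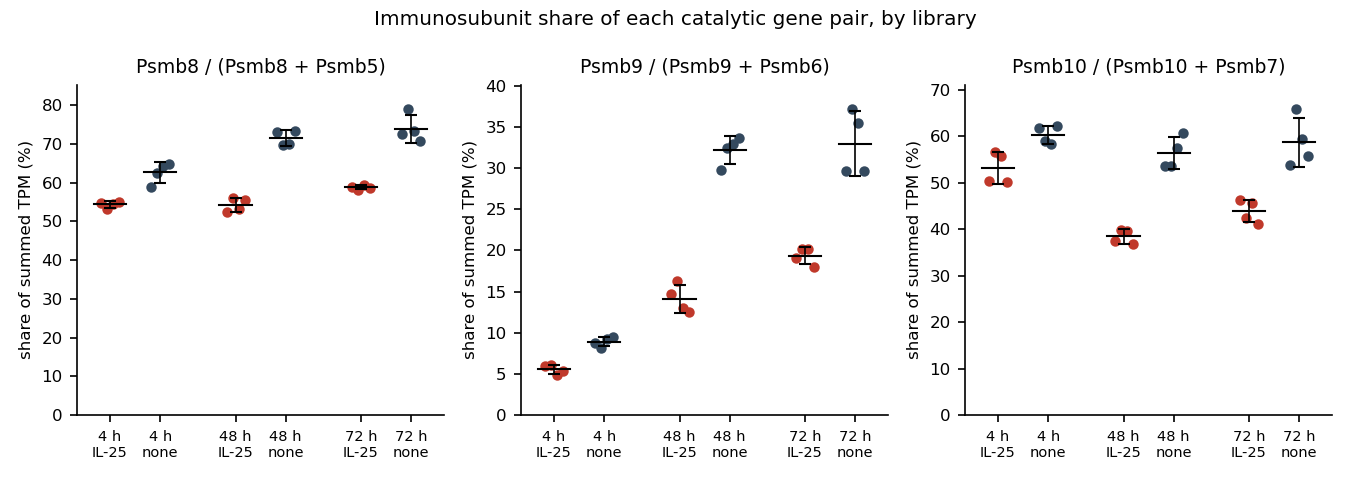
Share (y axis, percent of the summed TPM of the pair, from 0) of Psmb8 in Psmb8 plus Psmb5, of Psmb9 in Psmb9 plus Psmb6 and of Psmb10 in Psmb10 plus Psmb7 in each culture library (points), with group mean (line) and SD, for cells with IL-25 (red) and without it (dark blue). The share of Psmb9 is 14.1% with IL-25 and 32.2% without it at 48 h, and at 4 h it lies below 10% in both groups.

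Of 14 genes for receptors, deubiquitinases and adaptors that work with the proteasome, 6 were called higher and 1 lower at 4 h (13.4% and 26.9% of all genes), 5 higher and 0 lower at 48 h (21.4% and 28.7%), and 1 higher and 4 lower at 72 h (15.3% and 33.2%). Usp14, a deubiquitinase on the 19S cap, rose at 4 h (log2 0.56, adjusted p = 7.2e-05) and 48 h (0.50, adjusted p = 0.00017) and not at 72 h (-0.04). Uchl5, the other deubiquitinase of the cap, rose at 4 h (0.40) and fell at 72 h (-0.34, adjusted p = 0.00069). Adrm1, the ubiquitin receptor that holds Uchl5, rose at 4 h (0.31) and 48 h (0.48). Of 7 genes for the unfoldase p97 and its cofactors, 0 were called at 4 and 72 h, and Vcp (0.28) and Nsfl1c (0.48) rose at 48 h.

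The NRF1 axis was taken as 9 genes, the regulator and its processing enzymes and partners. At 4 h 1 was called higher and 4 lower (13.4% and 26.9% of all genes). At 48 h 1 was higher and 4 lower (21.4% and 28.7%), and at 72 h 2 and 4 (15.3% and 33.2%). Nfe2l1, the gene of NRF1, had 35.8, 35.4, 41.1 and 31.8 TPM with IL-25 at 4 h and 19.4, 22.6, 27.9 and 25.6 TPM without it, all libraries apart (log2 0.58, adjusted p = 0.0056). At 48 h it averaged 8.55 TPM with IL-25 and 7.91 TPM without it, which did not pass the test (log2 0.12, adjusted p = 0.55). At 72 h it was higher again (0.57, adjusted p = 0.005). Ngly1, the glycanase that processes NRF1, was lower with IL-25 at all 3 times (log2 -1.29, -0.78 and -0.44). The partner Mafg rose at 48 h (0.63) and 72 h (0.90). The part of NRF1 in the levels of the proteasome genes was not tested.

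The change of the IL-25 effect between times was tested directly. Between 4 and 48 h the effect grew for 14 of 40 genes and shrank or turned for 3 (17.2% and 10.7% of all genes). The 3 largest called increases were in Psma6 (log2 difference 0.62), Psmc6 (0.62) and Psmd13, a lid subunit (0.54). Psmd13 did not pass the test at 4 h (log2 -0.09), and at 48 h it had 256, 218, 228 and 213 TPM with IL-25 and 164, 173, 170.5 and 161 TPM without it. The 3 called decreases were Psme2b (-1.04), Psme2 (-0.84) and Psme1 (-0.59). Between 48 and 72 h the effect was higher for 1 gene and lower for 16 (5.22% and 9.5% of all genes), 15 of them among the 31 subunits. Psma3 (-0.47, adjusted p = 0.00023) and Psmd7 (-0.46, adjusted p = 0.00087) were among the largest decreases. Psmd9 (-0.63) and the 1 increase, Psme2b (0.65), were at adjusted p = 0.046 each. Psmd9 lost its call without 13 of the 16 libraries (0.052 to 0.1) and Psme2b without 10 (0.068 to 0.12). This count of 17 was 3 after median of ratios (1 higher, 2 lower) and 8 after quantile normalization (1 higher, 7 lower).

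Most of the genes were called between 48 and 4 h, as were most of all genes, and the split of directions depended on scaling. Without IL-25, 7 of 40 genes were higher and 25 lower at 48 h than at 4 h (19.9% and 44.5% of all genes). With IL-25, 13 were higher and 17 lower (27.6% and 44.5%). The median log2 change was -0.26 without IL-25 and -0.04 with it, beside medians over all genes of -0.28 and -0.24. After median of ratios, which sets the median of all genes to 0.01 without IL-25, the split was 14 higher and 9 lower without IL-25 and 22 higher and 5 lower with it. Shares of all genes called under that scaling are not given. Among called genes whose libraries did not overlap, Psme3, Psme4 and the lid gene Psmd11 had the largest falls without IL-25. Psmd11 had 140.0, 146, 161 and 150.6 TPM at 48 h and 216, 232, 266 and 234 TPM at 4 h without IL-25 (log2 -0.66, adjusted p = 1.9e-08). Psme3 and Psme4 fell in both settings, by log2 0.91 and 0.90 without IL-25 and by 0.72 and 0.64 with it. Psme1 and Psme2 fell by 0.75 and 1.09 with IL-25. Without it they fell by 0.16 and 0.25, directions that median of ratios turned to 0.17 and 0.08. The assembly chaperone Psmd10 rose in both settings, by 0.39 without and 0.70 with IL-25. Psmd5, another of these chaperones, had 31.4, 31.9, 35.3 and 45.3 TPM at 48 h and 29.6, 25.9, 23.4 and 21.9 TPM at 4 h without IL-25, which did not overlap (log2 0.49, adjusted p = 0.012), and its call was lost without library 4 of the 48 h group (0.061). Psmc3ip rose most, to 35.7, 41.9, 33.1 and 30.4 TPM at 48 h with IL-25, against 5.72, 6.13, 3.80 and 2.90 TPM at 4 h (log2 2.72, adjusted p = 6.2e-12). The sum of 9 cell cycle genes moved beside it, at 1521 to 1788 TPM at 48 h and 189 to 217 TPM at 4 h with IL-25, and its part in the result was not tested.

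From 48 to 72 h most of the genes fell with IL-25, and none was called without it. Without IL-25 limma called 0 of 40 genes, beside 0.284% higher and 0.0948% lower among all genes. At an unadjusted p under 0.05 there were 3 of the 40, beside 11.6% of all genes. With IL-25, 2 were higher and 29 lower at 72 h (13.4% and 17.9% of all genes), and 26 of the 31 subunits were among the lower ones. The median log2 change was -0.34 with IL-25, beside -0.04 over all genes. Psmd7, which stayed above its level without IL-25, had 181, 175, 181 and 166 TPM at 72 h against 268, 230.3, 245 and 274 TPM at 48 h with IL-25 (log2 -0.53, adjusted p = 4.8e-07). Psmb5 was lower at 72 h by log2 0.20 (adjusted p = 0.03), a call lost without library 1, 3 or 4 of the 48 h group (0.094, 0.065 and 0.054) or library 2 or 3 of the 72 h group (0.071 and 0.063), and under both rescalings (0.22 and 0.053). Psmc3ip, called lower as well, had 15.5, 15.99, 16.5 and 20.6 TPM at 72 h and 35.7, 41.9, 33.1 and 30.4 TPM at 48 h (log2 -0.998, adjusted p = 0.00029). The fall of Psmd3 was larger than that of Psmd7 but uncertain (-0.84, adjusted p = 0.048), and it lost its call without any 1 of the 8 libraries other than library 1 at 72 h (0.058 to 0.17). The 2 genes that rose were Psme2 (0.34, adjusted p = 0.0021) and Psme2b (0.65, adjusted p = 0.0018). Cell cycle genes summed to 1128 to 1309 TPM at 72 h and 1521 to 1788 TPM at 48 h with IL-25. Without it the ranges overlapped, at 1307 to 1427 TPM at 72 h and 1193 to 1663 TPM at 48 h. The part of these genes in the result was not tested.

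Between Rxrg KO and CTRL cells, few proteasome genes passed the test. In nILC2, 2 of 40 genes were called higher in KO and 0 lower (0.943% and 0.596% of all 10069 genes tested). At an unadjusted p under 0.05, 22 were higher and 1 lower, beside 19.3% of all genes in either direction. The median log2 change of the 40 genes was 0.23, beside -0.0028 over all genes. Of the 31 subunits, which were measured in the same libraries and are not separate observations, 30 had a positive estimate. Only these 2 genes had all KO libraries above all CTRL libraries and 0 had them all below (3.26% and 3.08% of all genes). Psmb3, a structural beta subunit, had 493, 575, 585 and 588 TPM in KO and 440.3, 454, 472 and 376 TPM in CTRL nILC2 (log2 0.36, adjusted p = 0.023). Psmd13 had 143, 173, 183 and 175 TPM in KO and 142, 137, 128 and 112 TPM in CTRL (log2 0.37, adjusted p = 0.041). In both genes the groups did not overlap, but KO library 1 came close to the CTRL libraries. The core sum was 4495, 5389.9, 5485 and 5184 TPM in KO and 4486, 4623, 4490.4 and 3677 TPM in CTRL nILC2, where KO library 1 fell within the CTRL range. Cell cycle genes summed to 1067, 1487, 1664 and 1407 TPM in the KO libraries and to 1007, 1294, 1168 and 804 TPM in the CTRL libraries, with the lowest library of each group being the one lowest in the core sum. Its part in the result was not tested.

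The number of calls in nILC2 rested on single libraries. Without KO library 1, 21 genes were called, 20 higher and 1 lower. Without CTRL library 2, 8 were called, and without CTRL library 3, 1 was. Without CTRL library 4, or without KO library 2, 3 or 4, 0 were. Psmb3 kept its call without KO library 1 and without CTRL libraries 1 to 3, and Psmd13 without KO library 1 and CTRL libraries 1 and 2. A block on the replicate number gave 4, rescaling by the median of ratios gave 7, and a fit of the nILC2 groups alone gave 0. The cleaving subunits had log2 changes of 0.30 (Psmb5), 0.20 (Psmb6) and 0.24 (Psmb7), with adjusted p of 0.074, 0.27 and 0.15. Psmb5 had 284, 353, 373 and 353 TPM in KO and 280.1, 302, 292 and 232 TPM in CTRL nILC2, which overlapped. Psmd14 had 172, 201, 195 and 199 TPM in KO and 158, 164, 177 and 127 TPM in CTRL (log2 0.30, adjusted p = 0.074), with KO library 1 again in the CTRL range. The PA28 genes had log2 changes of -0.08 (Psme1) and 0.06 (Psme2), which did not pass the test. Psme3 and Psme4 had changes of 0.21 and 0.33 that did not pass the test.

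In iILC2, limma called 0 of 40 genes and 0 of all genes (0% in each direction) between KO and CTRL. An unadjusted p under 0.05 was found in 0 of the 40, beside 3.26% of all genes. All KO libraries were above all CTRL libraries for 2 genes, Psmb5 and Psma7, and below for 0 (1.36% and 1.58% of all genes). The median log2 change was 0.02, and the core summed to 5519 ± 99.3 TPM in KO and 5454 ± 146 TPM in CTRL iILC2. Psmb5 had 324, 341, 335 and 333 TPM in KO and 297, 311, 316 and 323 TPM in CTRL iILC2, just without overlap (log2 0.10, adjusted p = 1). The difference between the KO effects in iILC2 and nILC2 was not called for any of the 40 genes (0% of all genes, lowest adjusted p = 0.29). At an unadjusted p under 0.05, 9 of 40 were lower, beside 10.5% of all genes in either direction. The estimate of this difference was below 0 in all 31 subunits, with a median of -0.24. All 31 were measured in the same libraries, so they are not separate observations of an effect. No median over all genes is given beside them. Leaving out nILC2 KO library 1 gave 2 calls.

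**Figure D5:**
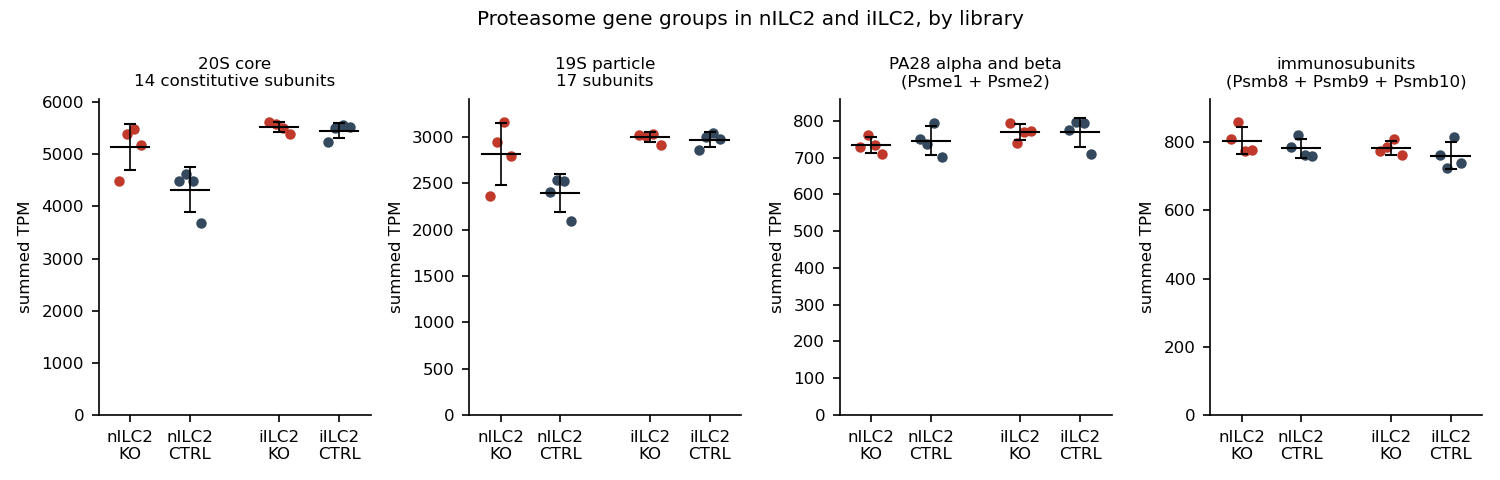
Summed TPM (y axis, from 0) of the 14 core subunits, the 17 subunits of the 19S particle, Psme1 and Psme2, and the immunosubunits in each genotype library (points), with group mean (line) and SD, for KO (red) and CTRL (dark blue) of nILC2 and iILC2. The core sums of nILC2 KO spread from 4495 to 5485 TPM and those of nILC2 CTRL from 3677 to 4623 TPM, while both iILC2 groups lie at or above 5237 TPM.

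Core and 19S genes were higher in iILC2 than in nILC2 among CTRL libraries. There, 23 of 40 genes were higher and 1 lower in iILC2 (21.9% and 23.6% of all genes), and 20 of the 31 subunits were among the higher ones. All iILC2 CTRL libraries were above all nILC2 CTRL libraries for 22 genes and below them for 1 (20.5% and 21.3%). The core summed to 5454 ± 146 TPM in iILC2 CTRL and 4319 ± 432 TPM in nILC2 CTRL, and the 19S particle to 2971 ± 77.8 TPM in iILC2 CTRL and 2391 ± 206 TPM in nILC2 CTRL, without overlap. Psmd8, a lid subunit, had 326, 335, 356 and 325 TPM in iILC2 CTRL and 203, 239, 232 and 193 TPM in nILC2 CTRL (log2 0.63, adjusted p = 2.9e-06). Psmd13 had 204, 199.7, 192 and 193 TPM in iILC2 CTRL and 142, 137, 128 and 112 TPM in nILC2 CTRL (log2 0.61), and Psmb3 followed (0.53). In these 3 genes the cell types did not overlap. Psme2b was the single gene that fell, with 29.3, 23.8, 24.9 and 24.3 TPM in iILC2 CTRL and 34.9, 37.3, 44.0 and 35.8 TPM in nILC2 CTRL (-0.55, adjusted p = 0.014). The direction was not stable across scalings, and how the calls of all genes split under the other scalings is not given. Quantile normalization gave 7 higher and 8 lower, and it turned the difference to -0.18 for Psmb5, -0.23 for Psmb6 and -0.12 for Psme2, which were 0.18, 0.13 and 0.27 before. Of the cleaving subunits only Psmb7 was called, with 195, 201, 196 and 212 TPM in iILC2 CTRL and 136, 171, 140.2 and 124 TPM in nILC2 CTRL (log2 0.50, adjusted p = 0.00014). Psmd14 rose as well (0.35, adjusted p = 0.0022), a call that quantile normalization ended (0.12, adjusted p = 0.15). The immunosubunits summed to 761 ± 39.1 TPM in iILC2 CTRL and 782 ± 27.8 TPM in nILC2 CTRL, and 0 of 3 were called. Cell cycle genes summed to between 2063 and 2173 TPM in iILC2 CTRL and to between 804 and 1294 TPM in nILC2 CTRL. Among markers of other cells, Cd3g (log2 -2.20), Epcam (-1.78) and Pecam1 (-0.71) were called lower in iILC2 CTRL, Cd68 (1.87) was called higher, and Hba-a1 was not called (-0.43). The part of these in the result was not tested.

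In KO, 9 of 40 genes were higher and 1 lower in iILC2 than in nILC2 (13.8% and 17.6% of all genes), and all iILC2 KO libraries were above all nILC2 KO libraries for 11 genes and below for 0 (14.3% and 16.3%). The core sums overlapped, at 5519 ± 99.3 TPM in iILC2 KO and 5139 ± 447 TPM in nILC2 KO. Cell cycle genes summed to 1977 to 2081 TPM in iILC2 KO and 1067 to 1664 TPM in nILC2 KO. Their part in the result was not tested. Psmd8 led again, with 340.2, 346, 344 and 336 TPM in iILC2 KO and 230.4, 289.8, 279 and 257 TPM in nILC2 KO (log2 0.38, adjusted p = 0.0011). Psmd13 (0.30, adjusted p = 0.013) and Psmb2, a structural beta subunit (0.26, adjusted p = 0.048), came next among genes whose libraries did not overlap. The call of Psmb2 was lost without any 1 of the iILC2 KO libraries (0.076 to 0.096) and without nILC2 KO library 1 (0.17) or 2 (0.052). The lid gene Psmd12 was the one called lower (log2 -0.24, adjusted p = 0.043), a call lost without any 1 of the 8 libraries other than nILC2 KO library 1 (0.054 to 0.13). The 10 calls became 4, 5, 6 and 6 without iILC2 KO library 1, 2, 3 or 4, and 6 and 5 without nILC2 KO library 1 or 4. After quantile normalization 1 gene was higher and 7 were lower, so the direction of these calls in KO depended on the scaling. How the calls of all genes split under that scaling is not given.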

How the data were processed

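Expression was measured by Smart-seq2 in 24 culture and 16 genotype libraries, and the 2 tables were analysed apart. The values are TPM as deposited by the authors, per gene and library; per the submitters' processing notes, which give no role for each tool, they used cutadapt 2.10, STAR 2.7.5c, RSEM 1.3.3 and the genome build mm10. Every column was matched to 1 library by its title (0 unmatched). Depth is not known from TPM, so no counting interval is given, and the precision is that of 4 libraries a group.

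Genes that reached 1 TPM in 4 or more libraries were tested with limma 3.58.1 (R 4.3.3) on log2(TPM + 1), with one term per group over all groups of a table, empirical Bayes moderation, and Benjamini-Hochberg adjustment over all genes tested. Calls were made below an adjusted p of 0.05. Fold changes on this scale understate the change of low genes. The procedure was first tested on simulated data. Rxrg was compared with a two-sided exact permutation test.

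The members and all gene lists were chosen with earlier results of these data known. Values per library are given for Psmb5, Psmb6, Psmb7, Psmd14 and Psme1 to Psme4, and per comparison for up to 3 called genes with the largest rise and 3 with the largest fall whose libraries did not overlap between groups. Other members named, such as the single exceptions to a count, and the pathway genes named were chosen after their values were seen. A further pathway list is not reported here.

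Alternatives were a pseudocount of 0.1 TPM, no filter, a filter at 5 TPM, quantile normalization, median-of-ratios rescaling, fits restricted to the groups compared, a block on the replicate number, a term for Y-linked expression in the genotype table, and leaving out each library. The criterion for pairing by number was a correlation of the deviations from the group means over 0.1 for each number. It was met only between nILC2 KO and iILC2 KO (lowest 0.102). Between nILC2 CTRL and iILC2 CTRL the correlations were 0.253, 0.153, 0.133 and 0.049 for numbers 1 to 4. Y-linked genes were under 1 TPM in number 2 of both CTRL groups, so CTRL libraries may also be paired. The main tests of iILC2 against nILC2 used no pairing. Besides the alternatives listed, a block on the number within each genotype was fitted for these comparisons without having been planned. The numbers come from the library titles.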

Additional observations from a re-analysis of the deposited data

Results flagged for a closer look

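In 8 of 120 groups of 4 libraries examined for the sums and the genes given per library (6.67%), 1 library stood apart from the other 3 by more than Dixon's 95% critical value. Chance alone gives this in about 1 in 20 groups. Core sums had a low library without IL-25 at 4 h (5596 TPM) and at 48 h (4974 TPM) and in nILC2 CTRL (3677 TPM). The 19S sum had a high library at 48 h without IL-25 (2746 TPM) and a low one in iILC2 KO (2913 TPM). Psmd14 had a high library with IL-25 at 72 h (227 TPM). Psme3, the nuclear activator gene, had a low library without IL-25 at 72 h (7.48 TPM) and in nILC2 CTRL (8.94 TPM).

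The effect of IL-25 differed between times by a direct test with limma for 17 of 40 genes between 48 and 4 h and for 17 between 72 and 48 h. Between 48 and 4 h the log2 difference was 0.62 for Psma6, 0.62 for Psmc6, 0.54 for Psmd13, -1.04 for Psme2b, -0.84 for Psme2 and -0.59 for Psme1. Between 72 and 48 h it was 0.65 for Psme2b, -0.63 for Psmd9, -0.47 for Psma3 and -0.46 for Psmd7. Both comparisons share the libraries of 48 h.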

How the results depend on the processing

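With no filter and with a filter at 5 TPM, no called gene lost its call. Of 244 calls of a proteasome gene in a comparison, 195 held without any 1 library and 49 did not. Every count not named here stayed within 1.5 times under the alternatives that keep all libraries. The 17 calls for the IL-25 effect at 72 h against 48 h became 3 after median of ratios and 8 after quantile normalization, and the 17 at 48 h against 4 h became 11 after quantile normalization. The 2 calls between KO and CTRL in nILC2 became 1 at a pseudocount of 0.1 TPM, 7 after median of ratios, 0 with the compared groups alone, 4 with the replicate block and 1 with the term for Y-linked expression. The 24 calls between iILC2 and nILC2 in CTRL became 15 after quantile normalization. Leaving out 1 library gave 19 to 23 calls at 4 h, 34 to 35 at 48 h and 18 to 24 at 72 h with IL-25 against none, 15 to 21 and 12 to 20 for the changes of the IL-25 effect, 29 to 32 at 48 h against 4 h without IL-25 and 28 to 31 with it, 0 and 26 to 31 at 72 h against 48 h, 0 to 21 for KO in nILC2, 0 for KO in iILC2, 0 to 2 for the KO effect in iILC2 against nILC2, and 20 to 27 in CTRL and 4 to 8 in KO for iILC2 against nILC2. Rxrg stayed lower in KO without any 1 library. Median of ratios reversed the log2 change at 72 h with IL-25 against none, giving Psmb7 0.0065 and Psmd4 0.020. Median of ratios reversed the log2 change at 48 h against 4 h without IL-25, giving Psma2 0.22, Psma4 0.27, Psma5 0.065, Psmb3 0.13, Psmb5 0.27, Psmc3 0.090, Psmc4 0.017, Psmd13 0.32, Psmd14 0.14, Psmd4 0.086, Psmd6 0.0028, Psme1 0.17 and Psme2 0.080. Median of ratios reversed the log2 change at 48 h against 4 h with IL-25, giving Psma2 0.23, Psma3 0.26, Psma5 0.26, Psma7 0.068, Psmb6 0.068, Psmc1 0.19, Psmc4 0.098, Psmd14 0.26, Psmd6 0.22, Psmd7 0.096 and Psmd8 0.042. Quantile normalization reversed the log2 change at 72 h with IL-25 against none, giving Psma3 -0.034 and Psmb3 -0.12. Quantile normalization reversed the log2 change at 48 h with IL-25 against none, giving Psma1 -0.018, Psmb1 -0.032 and Psmb7 -0.010. Quantile normalization reversed the log2 change at 48 h against 4 h with IL-25, giving Psmb3 -0.033. Quantile normalization reversed the log2 change in iILC2 against nILC2 among CTRL, giving Psma2 -0.030, Psma3 -0.15, Psma6 -0.068, Psma7 -0.21, Psmb1 -0.090, Psmb5 -0.18, Psmb6 -0.23, Psmd4 -0.23, Psmd6 -0.000915 and Psme2 -0.12. Quantile normalization reversed the log2 change in iILC2 against nILC2 among KO, giving Psma1 -0.055, Psma5 -0.18, Psma7 -0.23, Psmb6 -0.25 and Psme2 -0.023. The cause of these changes was not tested. A replicate block gave 9 calls in iILC2 against nILC2 among KO, where the numbers met the criterion for pairing, beside 10 without it. That block gave each number a single term over all groups, so it also tied CTRL to KO libraries. No other count with it differed by over 1.5 times except that of KO in nILC2, where libraries share only a number. An unplanned block on the number within each genotype was fitted for iILC2 against nILC2 in CTRL and KO and for the KO effects. Over these comparisons 30 calls held, 4 were lost and 2 were added. Depth is unknown, so low genes such as Psme4 carry an unknown counting error.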

Other observations

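The lid gene Psmd3 varied with the library number in a way that its group does not give. Without IL-25 number 1 was the lowest and number 4 the highest library at 4, 48 and 72 h, and with IL-25 number 1 was the highest and number 4 the lowest. Its values with IL-25 at 4 h were 159.7, 152, 129 and 91.2 TPM for numbers 1 to 4, and without IL-25 they were 40.5, 96.8, 116 and 142 TPM. Of 10548 genes tested, 9 had this order in all 6 groups (Atxn2l, Eif3f, Ier2, Nubp1, Psmd3, Rps2, Tmed2, Tmem259 and Unc119b), and 0 had the opposite order. The pattern was noticed after the values were seen, and its cause was not tested.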
